A study of Rattus norvegicus with 3 samples.

Results

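The regions described here lie in 5 windows of 600 kb on the rat assembly rn4, around Pdk1, Got2, Abhd6, Ctsa and Eif2b3. They were taken from 3 deposited lists of regions that gave more methylated DNA in one liver library than in another. The windows hold 204 of the 95306 deposited regions, of which 79 come from the MLP vs. C list, 78 from the MLP vs. MLP-F list and 47 from the MLP-F vs. C list. In each list the library named first gave the stronger signal. The genes were chosen by measured values, since each is named for a region that the study selected in MLP vs. C and is listed by the study as more strongly expressed in MLP livers, on arrays that were not analysed here. Got2 is in the study's array table but, unlike the other genes, is not among the genes that the study shows as shared between its array and methylation results. The score in MLP vs. C of the region annotated to each gene, and its presence in that list, are therefore a description.

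DNA came from livers of male Wistar rats at the age of 1 day. The MLP diet of the dams held 9% casein and folic acid at 1 mg/kg, the MLP-F diet 9% casein and folic acid at 5 mg/kg, and the C diet 18% casein and folic acid at 1 mg/kg. DNA of each group was pooled, from 6 animals by the labels and 8 by the study's methods, all of 1 litter, and gave 1 library per diet. Diet and litter cannot be told apart, there is no replicate error, and no difference between diets was tested. The MLP library was the deepest and the C library the shallowest. The MLP vs. C list was the longest (35998 regions), followed by MLP vs. MLP-F (33730) and MLP-F vs. C (25578), and the part of depth in this was not tested.

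In MBD-seq, fragments that carry methylated CpG are captured with a methyl-CpG binding domain and sequenced, so a region listed as higher in MLP held more captured fragments there, relative to the depth of both libraries. Each region carries the p of the peak caller MACS as a score, 10 times its −log10. It runs upwards from 50 in each list. A score states how clearly 2 libraries differ and is neither a methylation level nor a fold change. In whole liver, a change in the share of a cell type and a change of methylation within cells cannot be told apart. Regions with less signal in MLP were not analysed here, and a region absent from a list is not shown to be equal in its 2 libraries.

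The 5 genes act at different points of metabolism. PDK1 phosphorylates the pyruvate dehydrogenase complex and so restrains the oxidation of pyruvate in mitochondria. GOT2 is the mitochondrial aspartate aminotransferase, which joins amino acid metabolism to the malate-aspartate shuttle. ABHD6 hydrolyses monoacylglycerols. CTSA, cathepsin A, is a lysosomal carboxypeptidase that also protects β-galactosidase and neuraminidase from breakdown. EIF2B3 is a subunit of eIF2B, the exchange factor that reloads the translation initiation factor eIF2 with GTP.

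The regions annotated to the 5 genes are all in the set of 1183 regions that the study selected from MLP vs. C by false discovery rate. Their scores in that list, which lay close together, were thus part of the choice and are a description. They scored 129.40 at Pdk1, 122.72 at Got2, 131.46 at Abhd6, 125.77 at Ctsa and 128.54 at Eif2b3, which put them within the top 17.5% to 20.3% of that list. Their presence in the other 2 lists differed. The Eif2b3 region was also listed in MLP vs. MLP-F, the Pdk1 region in MLP-F vs. C, and those of Got2, Abhd6 and Ctsa in neither. Over the whole MLP vs. C list, 39.4% of the regions were also listed in MLP vs. MLP-F and 22.6% in MLP-F vs. C. With 5 regions, counts of 1 in each cannot be told from those percentages.

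**Figure D1:**
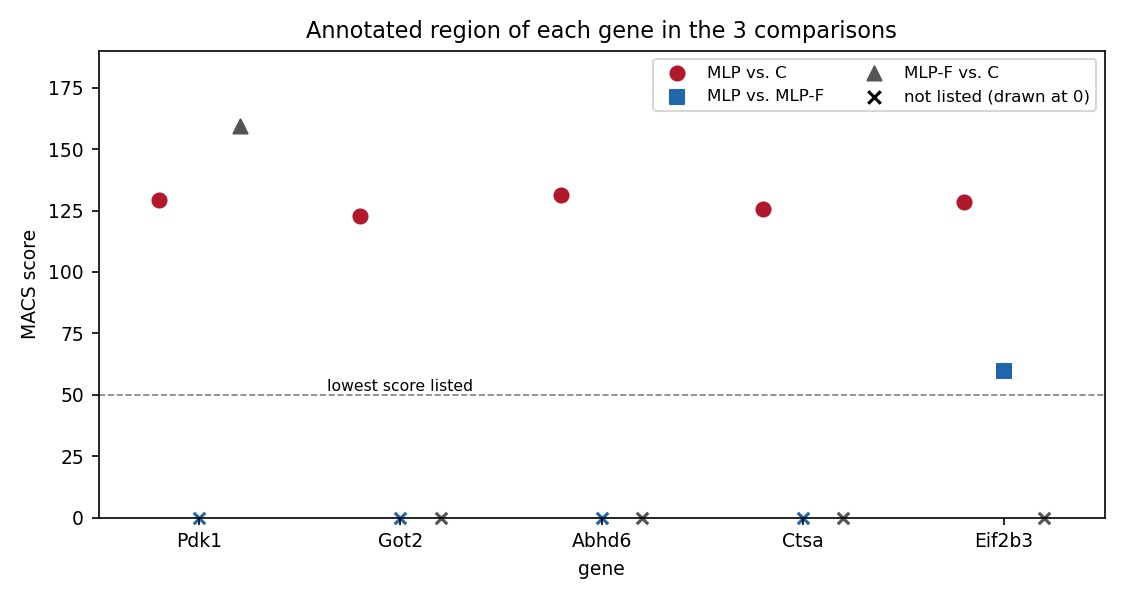
MACS score (10 times −log10 p) of the region annotated to each gene in MLP vs. C (circles), MLP vs. MLP-F (squares) and MLP-F vs. C (triangles); crosses at 0 mark regions that were not listed, and the dashed line is the lowest score of the lists. All 5 regions were chosen from those that the study selected in MLP vs. C, where they scored between 122.72 and 131.46. Each of the other lists held a single one, with 59.60 at Eif2b3 and 159.43 at Pdk1.

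At Pdk1 the annotated region lies on chromosome 3 from 54337327 to 54337900 (574 bp), and the study's annotation places it downstream of the gene. In MLP-F vs. C a region of 453 bp, from 54337403 to 54337855, lies wholly within it. That region scored 159.43, the highest of the 7 MLP-F vs. C regions of the window and within the top 4.54% of its list. MLP-F and MLP thus both stood above C at this position. It was not listed in MLP vs. MLP-F.

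The neighbouring region of Pdk1 lies 9345 bp away (54326976 to 54327981) and was in the other pair of lists. It scored 190.26 in MLP vs. C, the highest of the 16 in the window, and 183.89 in MLP vs. MLP-F with the same start and end, and was not listed in MLP-F vs. C. Further out, a region at 54439602 to 54440743, 103 kb from the annotated region, scored 56.32 in MLP vs. C and 202.08 in MLP vs. MLP-F. A region at 54601644 to 54602388 was stronger against C, with 163.19 in MLP vs. C and 82.58 in MLP vs. MLP-F. Of the 16 MLP vs. C regions at Pdk1, 7 were also in MLP vs. MLP-F and 4 in MLP-F vs. C, with none in both. Over the whole MLP vs. C list 39.4% were also in MLP vs. MLP-F and 22.6% in MLP-F vs. C. With 16 regions, counts of 7 and 4 cannot be told from those percentages. To find none in both is usual. With overlapping regions merged, 0.553% of the positions of the series were in all 3 lists. The 4 shared with MLP-F vs. C are the annotated region itself and those 186, 277 and 299 kb from it. In MLP vs. C the last 3 scored 75.45, 59.46 and 59.23, and in MLP-F vs. C they scored 141.39, 107.07 and 58.60 in the same order. In the later assembly GRCr8, Pdk1 lies between Itga6, an integrin subunit, and Rapgef4, an exchange factor activated by cyclic AMP. Gene positions on rn4 were not used here, so no region is assigned to these neighbours.

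The annotated region of Got2 (chromosome 19, 9642179 to 9642900, 722 bp) is labelled by the study's annotation as overlapping a 3′ end. It was listed in MLP vs. C alone. A short region of 282 bp lies 443 bp before it, at 9641454 to 9641735. It had the highest MLP vs. C score of the window, 186.32, and was also listed in MLP vs. MLP-F with 69.80. The Got2 pair is the closest of any annotated region to another region in the MLP vs. C list, as the gap to the nearest was 6220 bp at Ctsa and larger at the other 3 genes.

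Over the 3 lists the Got2 window held 54 regions, the most of the 5, with 23 in MLP vs. C, 22 in MLP vs. MLP-F and 9 in MLP-F vs. C. Of the 23, 11 (47.8%) were also in MLP vs. MLP-F, against 39.4% of the whole MLP vs. C list. The scores of these 11 ran between 51.06 and 186.32 in MLP vs. C and between 50.73 and 121.90 in MLP vs. MLP-F. A position at 9695849 to 9696329, 53.5 kb from the annotated region, was in all 3 lists, with 94.26 in MLP vs. C, 50.73 in MLP vs. MLP-F and 56.49 in MLP-F vs. C. It is the only position of the 5 windows listed in this graded way, MLP above MLP-F and MLP-F above C. The highest MLP vs. MLP-F score of the window, 146.12 at 9590317 to 9590982, belonged to a region absent from MLP vs. C. The position at 9495391 to 9496221 was in the lists against C, with 161.58 in MLP vs. C, an overlapping region at 103.88 in MLP-F vs. C and no region in MLP vs. MLP-F. Other positions in the same pair of lists had the higher score in MLP-F vs. C. At 9578755 to 9579386 it was 120.81, the highest of that list in the window, against 74.75 in MLP vs. C. At 9663145 to 9664095 it was 110.60, against 81.02. In GRCr8 the genes on one side of Got2 are Slc38a7, an amino acid transporter, and Cnot1, the scaffold of the CCR4-NOT deadenylase.

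At Abhd6 the annotated region is intronic by the study's annotation (chromosome 15, 18852973 to 18853565, 593 bp). It stood alone. The nearest region of the same list lay 19559 bp away with a score of 80.74, and the nearest in MLP vs. MLP-F 62084 bp away with 63.68. The strong regions of the window were elsewhere and differed in the lists they shared. At 18767524 to 18768466, 85.3 kb below, the score was 298.45 in MLP vs. C, the highest of all 79, and 95.93 in MLP-F vs. C for an overlapping region.

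The second-highest MLP vs. C region at Abhd6, at 19134134 to 19134554, scored 213.45 there and 128.49 in MLP vs. MLP-F. The region at 18978172 to 18979159 was weaker against C, with 106.40 in MLP vs. C and 285.26 in MLP vs. MLP-F. Both of these positions were missing from MLP-F vs. C. At 19017740 to 19018451 the score was 150.61 in MLP vs. C, and the overlapping MLP-F vs. C region, 19017659 to 19018497, scored 150.67. Of the 10 MLP-F vs. C regions at Abhd6, 9 lie below the annotated region in coordinate and 1 above it. The other lists were near even there, with 9 below and 7 above in MLP vs. C and 6 and 6 in MLP vs. MLP-F. In GRCr8, Abhd6 lies between Rpp14 and Dnase1l3. Past Rpp14 and Pxk on that side is Pdhb, which encodes a subunit of the pyruvate dehydrogenase complex that PDK1 phosphorylates. No region is assigned to these genes.

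The annotated region of Ctsa (chromosome 3, 155869263 to 155870922) is the longest of the 5, with 1660 bp, and the longest of the 79 MLP vs. C regions in the windows. It is intronic by the study's annotation and was in neither other list. Of the 16 MLP vs. C regions at Ctsa, 2 (12.5%) were also in MLP vs. MLP-F, against 39.4% of the whole MLP vs. C list. The window holds 22 regions in the MLP vs. MLP-F list, of which 9.09% were in MLP vs. C, against 42.1% of that whole list. The 20 positions listed in MLP vs. MLP-F alone scored between 52.85 and 196.47. The 2 shared positions were 155635373 to 155635970, with 50.71 in MLP vs. C and 51.00 in MLP vs. MLP-F, and 155925963 to 155926920.

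That second position, 56.3 kb above the annotated region of Ctsa, scored 206.03 in MLP vs. C and 370.06 in MLP vs. MLP-F, the highest MLP vs. MLP-F score of the 5 windows. A separate region just beside it, at 155927655 to 155928076, scored 184.89 in MLP vs. MLP-F and was not listed in MLP vs. C. Of the 22 MLP vs. MLP-F regions at Ctsa, 14 lie above the annotated region and 8 below it, where MLP vs. C has 7 and 8. Among the 14 are a pair at 156030238 to 156030984 and 156031687 to 156032505, with scores of 101.56 and 196.47, and neither is in MLP vs. C. The highest MLP-F vs. C score at Ctsa was 135.87, at 155730238 to 155732086, also outside MLP vs. C. In GRCr8, Ctsa lies between Neurl2 and Pltp, the gene of the phospholipid transfer protein of plasma lipoproteins.

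At Eif2b3 the annotated region (chromosome 5, 137392009 to 137392479, 471 bp, intronic by the study's annotation) had the highest MLP vs. C score of its window. It had the same start and end in MLP vs. MLP-F, with a score of 59.60, a low one in that list, where 78.9% of the regions scored as high or higher. MLP thus stood above both C and MLP-F at this position. The window held 7 regions in MLP vs. C, 11 in MLP vs. MLP-F and 12 in MLP-F vs. C, so it is the window of the 5 with the fewest MLP vs. C and the most MLP-F vs. C regions.

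The strongest regions near Eif2b3 were in MLP vs. MLP-F alone. The 3 highest scored 240.31 (137581626 to 137582184), 172.05 (137590499 to 137591045) and 277.69 (137609181 to 137610417). None overlapped a region of either other list, although the MLP-F vs. C list has a region between the last pair (137601749 to 137602217, score 79.32). Such absence is common, as 42.1% of the whole MLP vs. MLP-F list was also in MLP vs. C and 1.27% in MLP-F vs. C. The next highest in MLP vs. MLP-F at Eif2b3 was 96.74. Between the annotated region and these a position at 137561163 to 137561828 was shared by the comparisons with C, with 64.85 in MLP vs. C and 139.08 in MLP-F vs. C. Of the 12 MLP-F vs. C regions of the window, 11 were in that list alone, with scores between 52.33 and 79.32. To be in that list alone is usual, as over the whole list 31.8% of the regions were also in MLP vs. C and 1.67% in MLP vs. MLP-F.

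**Figure D2:**
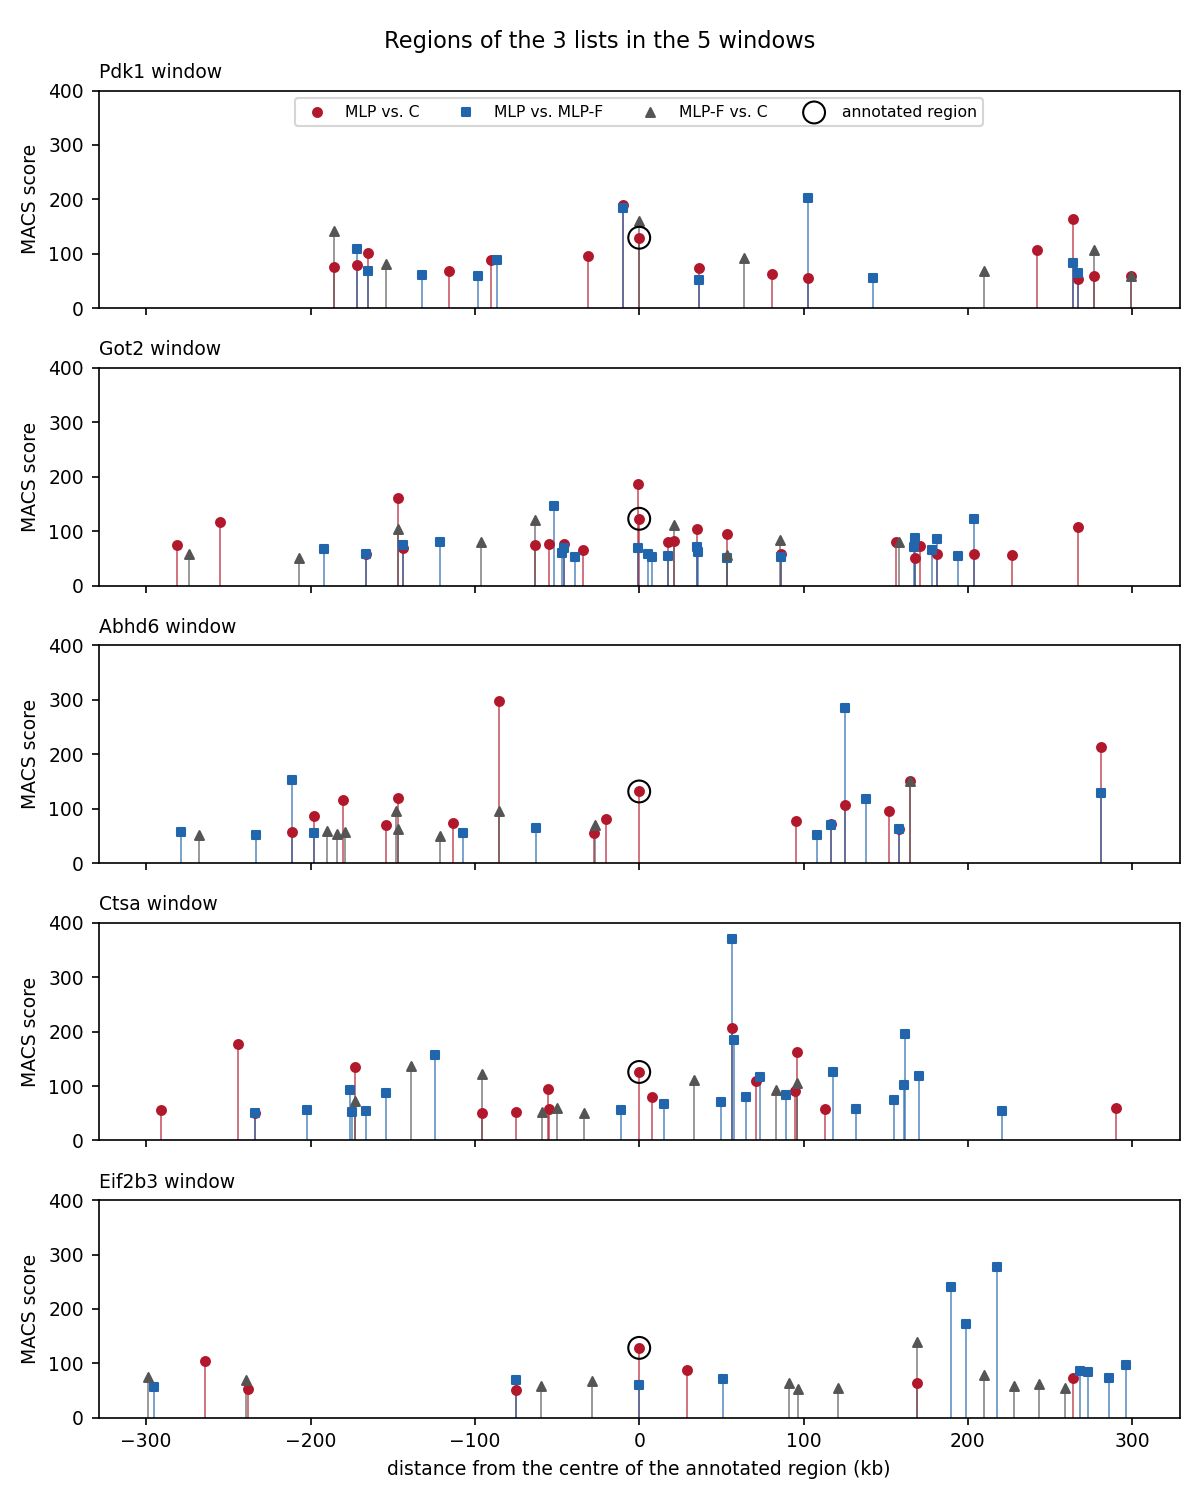
MACS score of every region of the 5 windows against its distance in kb from the centre of the annotated region (ringed), for MLP vs. C (circles), MLP vs. MLP-F (squares) and MLP-F vs. C (triangles). The 3 highest scores are 370.06 at Ctsa in MLP vs. MLP-F, 298.45 at Abhd6 in MLP vs. C and 285.26 at Abhd6 in MLP vs. MLP-F, and none of them is an annotated region.

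Within the MLP vs. C list, the annotated region had the highest score of its window at Eif2b3 and not at the other 4 genes. Of the 79 MLP vs. C regions, 11 scored above the highest annotated region (131.46), namely 2 at Pdk1, 2 at Got2, 3 at Abhd6 and 4 at Ctsa, and over the whole list 17.5% of the regions did. None of the 11 is in the set that the study selected, which holds 1183 of the 35998 regions, so absence from it is usual. Of these 11, 5 were also listed in MLP vs. MLP-F, 5 in MLP-F vs. C and 1 in neither, the last at 155625033 to 155626606 near Ctsa with a score of 176.87. Over the whole MLP vs. C list the shares were 39.4% and 22.6%. Shares among all regions that score above 131.46 were not computed, so nothing is read from these counts. A score of 100 or more was reached by 26 of the 79 regions in MLP vs. C (32.9%, against 31.1% of the whole list), by 20 of 78 in MLP vs. MLP-F (25.6%, against 36.8%) and by 12 of 47 in MLP-F vs. C (25.5%, against 19.1%). Median scores in the windows were 79.7, 70.0 and 70.3 in these 3 lists, and 77.4, 81.8 and 69.4 over the whole lists. Median lengths were 691, 720 and 626 bp in the windows and 674, 727 and 657 bp over the whole lists.

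Per Mb the windows held 26.3 regions in MLP vs. C, 26 in MLP vs. MLP-F and 15.7 in MLP-F vs. C, where the whole lists held 12.9, 12.1 and 9.16 in the same order. Each window was placed on a listed MLP vs. C region, so a count of at least 1 in that list is given by the choice. That region lies in the middle 200 kb of its window, so the middle density includes it. Windows placed on a listed region also favour stretches rich in regions. The densities and bin percentages are therefore descriptions. In the middle 200 kb of the windows the MLP vs. C list held 36.0 regions per Mb, and in the outer parts 21.5. The values were 28 and 25 per Mb for MLP vs. MLP-F, and 20 and 13.5 for MLP-F vs. C. When the placed chromosomes were divided into 4520 bins of 600 kb, 1.79% of the bins held as many MLP vs. C regions as the Got2 window or more, 9.31% as many as Abhd6, 11.4% as many as Pdk1 and Ctsa, and 47.9% as many as Eif2b3. For MLP vs. MLP-F the percentages were 2.83% for Got2 and Ctsa, 17.0% for Abhd6 and 20.9% for Pdk1 and Eif2b3. For MLP-F vs. C they ran from 11.1% for Eif2b3 to 34.2% for Pdk1.

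**Figure D3:**
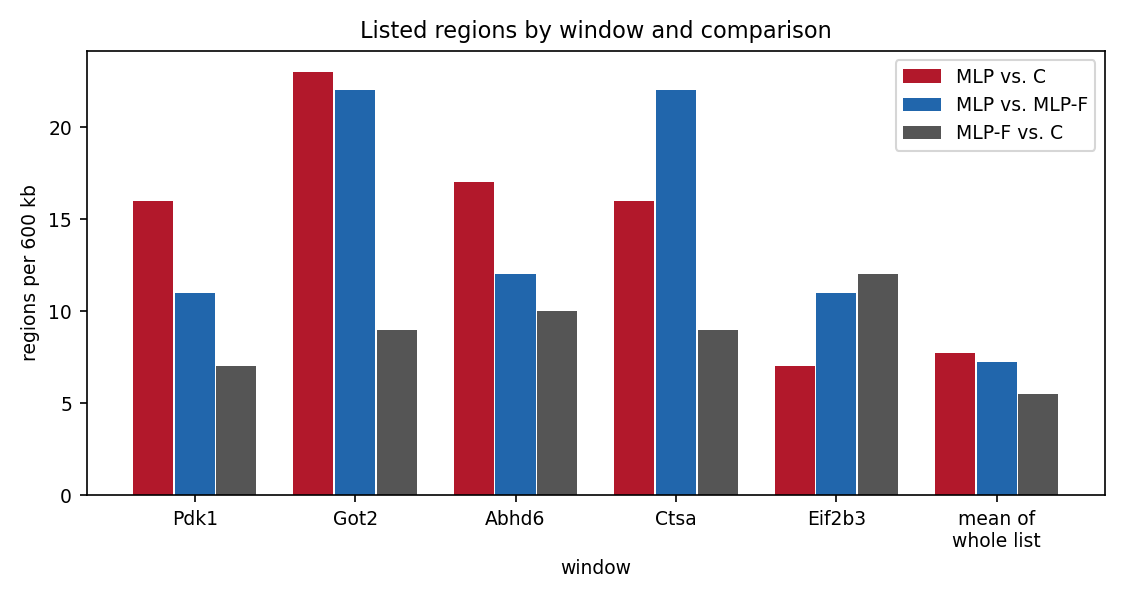
Number of listed regions in each 600 kb window for MLP vs. C (red), MLP vs. MLP-F (blue) and MLP-F vs. C (grey), with the mean per 600 kb of each whole list at the right. Got2 has 23 and 22 regions in the 2 MLP lists, Ctsa 16 and 22, and Eif2b3 7 and 11, against whole-list means of 7.73 and 7.25.

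In the 5 windows together, 28 of 79 MLP vs. C regions were also listed in MLP vs. MLP-F (35.4%, 95% Wilson interval 25.8 to 46.4%, against 39.4% of the whole list). For MLP-F vs. C the count was 15 of 79 (19%, 11.9 to 29.0%, against 22.6%). Both whole-list percentages lie within the intervals, which cover counting error only. MLP enters both MLP lists and C both lists against C, so these overlaps describe the lists and do not support a pattern of their own. The other way round, 35.9% of the 78 MLP vs. MLP-F regions were in MLP vs. C (42.1% of the whole list), and 31.9% of the 47 MLP-F vs. C regions were (31.8% of the whole list). The lists that have MLP-F in opposite places shared a single position in the windows, 1 of 78 regions of MLP vs. MLP-F (1.28%, against 1.27% of the whole list) and 1 of 47 of MLP-F vs. C (2.13%, against 1.67%).

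The share in MLP vs. MLP-F was 47.8% at Got2 (29.2 to 67.0%), 43.8% at Pdk1 (23.1 to 66.8%), 35.3% at Abhd6 (17.3 to 58.7%), 28.6% at Eif2b3 (8.22 to 64.1%) and 12.5% at Ctsa (3.50 to 36.0%). The intervals of the 5 genes overlap each other, and only that of Ctsa lies below 39.4%. The share in MLP-F vs. C was between 14.3% at Eif2b3 and 25% at Pdk1. Neighbouring regions of a window share their libraries and are not independent.

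**Figure D4:**
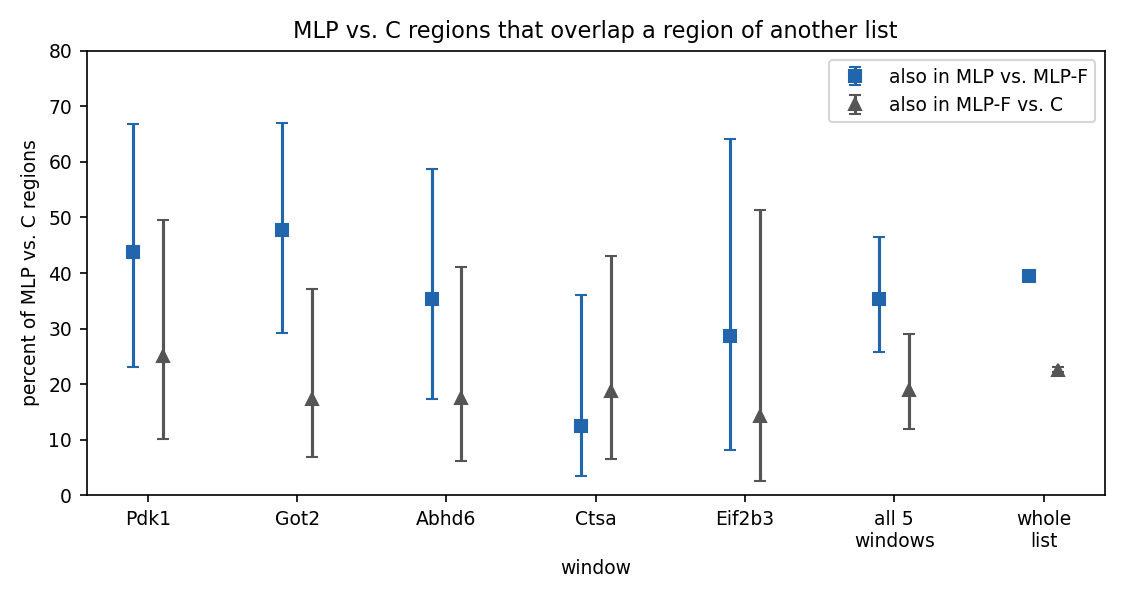
Percent of the MLP vs. C regions of each window that overlap a region of MLP vs. MLP-F (squares) or of MLP-F vs. C (triangles), with the 5 windows together and the whole list at the right; bars are 95% Wilson intervals. Ctsa has the lowest share in MLP vs. MLP-F, 12.5%, and the 5 windows together have 35.4% and 19%.

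Merging overlapping regions of the lists gave 161 positions in the 5 windows and 72909 in all. In the windows 27 positions (16.8%) were listed as higher in MLP than in both C and MLP-F and in no other way, against 18.9% over the series, among them the annotated region of Eif2b3. In MLP vs. C and MLP-F vs. C, with no region in MLP vs. MLP-F, were 14 (8.70%, against 10.6%), among them that of Pdk1. In MLP vs. C alone were 37 (23.0%, against 19.3%), among them those of Got2, Abhd6 and Ctsa. In MLP vs. MLP-F alone were 50 (31.1%, against 26.8%), of which 20 lie at Ctsa, 11 at Got2, 9 at Eif2b3, 6 at Abhd6 and 4 at Pdk1. In MLP-F vs. C alone were 32 (19.9%, against 23.9%), and 1 position, at Got2, was in all 3 lists (0.621%, against 0.553%). None of the 161 was in both lists that involve MLP-F but not in MLP vs. C, a combination found at 0.0329% of the positions of the series.

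The windows end at fixed coordinates, and strong regions can lie just past them. The strongest is at Ctsa, where a region 1972 bp below the window (155567202 to 155568028) scored 394.23 in MLP vs. C and 532.94 in MLP vs. MLP-F, above every region inside, while the first region inside the window in MLP vs. C (155578972 to 155579561) scored 55.64. At Got2 an MLP vs. MLP-F region 2247 bp above the window scored 113.74, and the last inside scored 121.90. At Eif2b3 an MLP vs. C region 7540 bp below the window scored 78.29, and the first inside 104.50.

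Other genes of the same pathways were looked up by symbol among those named for the regions that the study selected. By symbol or synonym, 664 of 23154 protein-coding genes of RefSeq (2.87%) matched a name there. A single name can match several genes in that wider count, so it is not a like measure. Of 15 genes of pyruvate dehydrogenase and its regulators Pdk1 was named, of 7 of the malate-aspartate shuttle Got2, of 8 of monoacylglycerol hydrolysis Abhd6, and of 8 of eIF2B and its substrate Eif2b3. Of 10 genes of lysosomal carboxypeptidase and cathepsins, 2 were named, Ctsa and Glb1, the β-galactosidase that CTSA protects. The 5 genes are in these counts because they were chosen from that set, so Glb1 is the single further member matched by symbol. The study also lists CTSH, another gene of the cathepsin list, among human association loci whose rat counterpart holds a differentially methylated region. With lists this short nothing is read from the counts against 2.87%. These lists were written with that set at hand.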

How the data were processed

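MBD-seq libraries of liver DNA, 1 pool per diet, were compared by the authors, who aligned 76-bp read pairs to rn4 with Bowtie, kept 1 alignment per pair, and ran MACS on each pair of libraries (p cut-off 1e-05, bandwidth 300 bp, model fold 32, genome size set to 2.00e+09 bp). The submitters' processing notes also name CASAVA. For Bowtie, CASAVA and MACS the version is not given in the sources used here. In the deposited lists, the score of a region is 10 times the −log10 of its p; no read counts, folds or FDR were used. By the study's supplement the libraries held 26145395 (MLP), 17306868 (MLP-F) and 13322026 (C) unique tags. The p depends on the depth of both libraries, and the part of depth in the lists was not tested.

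Starts were converted to 1-based positions. Regions belong to a window when they overlap it, and lists share a region when it overlaps by at least 1 bp. All 1183 regions of the study's annotation table were found in the MLP vs. C list by chromosome, start and end; gene names and places were taken from it. Regions were assigned to 600 kb bins by their midpoints, and densities used the largest ends over the lists (2793 Mb). Shares have 95% Wilson intervals. Overlaps were checked against bedtools 2.31.1 and on simulated data. Gene neighbours are those of RefSeq on GRCr8. Pathway genes were matched by symbol, and the RefSeq genes beside them by symbol or synonym. Sequences of the regions were not used here. Calculations ran in Python 3.11.15 with pandas 2.3.3, SciPy 1.17.1 and numpy 2.4.6, and plots were drawn with matplotlib 3.10.9.

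Named were the 5 genes and, in each window, the annotated region and the highest region of each list. Some of the regions shared between lists and some at the window edges were named too. The regions in MLP vs. MLP-F alone at Ctsa and Eif2b3, and the MLP vs. C regions above the highest annotated one, were picked after their values were seen. The members and lists were chosen with earlier results of these data known. Alternative settings were a minimum score of 100, the middle 200 kb, a reciprocal overlap of 50% and a gap of at most 1 kb.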

Additional observations from a re-analysis of the deposited data

How the results depend on the processing

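Counts in the windows fell with stricter settings, as fewer regions enter. With a score of at least 100 they were 26 in MLP vs. C, 20 in MLP vs. MLP-F and 12 in MLP-F vs. C, and in the middle 200 kb of each window 36, 28 and 20. Allowing a gap of 1 kb raised the annotated regions also listed in MLP vs. MLP-F to 2, since the region 443 bp from that of Got2 then counts. The shares of MLP vs. C regions also in MLP vs. MLP-F (33.3% to 38.0%) and in MLP-F vs. C (17.7% to 26.9%) stayed within their intervals under all 4 alternatives. No paired analysis was possible because each diet had 1 pooled library. With no replicate and no depth per region, a score compares 2 libraries and does not state how firmly any single region differs between diets.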

Other observations

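In the windows, all 28 MLP vs. C regions that overlapped an MLP vs. MLP-F region had the same start and end in both lists. All 14194 of the whole list did too. Of those shared with MLP-F vs. C, 0 of the 15 in the windows and 0 of the 8144 of the whole list did. The contrast thus belongs to the lists as a whole and is not a trait of the windows. Of the 28, 16 scored higher in MLP vs. C and 12 in MLP vs. MLP-F. Of the 14194, 6498 scored higher in MLP vs. C and 6923 in MLP vs. MLP-F, and the rest scored the same in both lists.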
